A study of Mus musculus with 6 samples.

Results

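The genes described here carry proteins into the endoplasmic reticulum (ER), attach sugars to them there and load them into the first transport vesicles. They were taken by name from the protein-coding genes of GENCODE mouse release 21: the Sec61, Sec62 and Sec63 translocon, the signal recognition particle (SRP) and its receptor, the translocon-associated protein (TRAP) genes Ssr1 to Ssr4, the signal peptidase, 6 oligosaccharyltransferase (OST) genes, the COPII coat, the p24 (Tmed) family, the COPI coat and the Sec22 genes. The names matched 63 of the 31053 genes listed in all 6 libraries. The name pattern for the COPII coat also took in Sec23ip, which encodes a protein that binds SEC23.

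The measurement was EPR, the number of C-to-U edits in a gene divided by its number of reads. Ribo-STAMP places these edits by fusing rAPOBEC1, a cytidine deaminase acting on RNA, to a ribosomal protein, and ordinary RNA-seq reads them out. Wild-type cortical neurons from E18 C57BL/6J embryos were infected with AAV at DIV 6, given Dox at 1 µg per ml for 48 h and collected at DIV 14, so that both groups carried the same inducible system and the same Dox exposure. One group expressed the fusion to the mouse Rpl10a open reading frame (RPL10A-STAMP) and the other the fusion to mouse Rpl22 (RPL22-STAMP), with 3 libraries each. Floxuridine had been added to limit dividing cells, and the transactivator was under a synapsin promoter, which is meant to restrict the fusion to neurons. Libraries with RPS2-STAMP or without a construct were not analysed here, so no background editing was measured. The labels do not name separate cultures, and p-values measure only the spread between these libraries. The study's methods give 3 biological replicates, but its text calls them technical replicates where it correlates their EPR.

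Proteins bound for the cell surface, the synapse or secretion enter the ER while they are still being made. SRP binds the signal sequence as it leaves the ribosome, the receptor docks the ribosome at the membrane, and the Sec61 channel passes the chain into the ER, where signal peptidase removes the signal and OST adds N-glycans. COPII-coated vesicles then carry cargo towards the Golgi, and COPI-coated vesicles return escaped proteins and membrane. The p24 proteins act as cargo adaptors in both, and the SNARE Sec22b takes part in fusion. Neurons rely on this route for receptors, channels and adhesion proteins.

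Of the 63 genes, 53 were edited, meaning an EPR above 0, in all 6 libraries. Another 6 were edited in 1 to 5 libraries (Cope, Copz2, Sec22a, Sec61b, Srprb and Tmed1) and 4 in none (Sec31b, Srp54b, Tmed6 and Tmed11). A value of 0 can stand for no edits or for no reads, and the depth behind any value is unknown. The neuronal markers checked, 9 of 9, were edited in all 6 libraries, with a summed EPR of 0.221 to 0.268 with RPL10A-STAMP against 0.209 to 0.266 with RPL22-STAMP. Of 5 astrocyte markers 4 were edited in all 6 libraries, with sums of 0.140 to 0.238 and 0.109 to 0.197. Of 5 oligodendrocyte lineage markers 1 was edited in all 6 and Mog in none, with sums of 0.0175 to 0.115 and 0.0563 to 0.0919. None of 4 microglial markers was edited in all 6, Csf1r and Aif1 being at 0, with sums of 0 to 0.0143 and 0 to 0.0714, and the endothelial markers Cldn5 and Pecam1 were at 0. EPR is not an expression level, so these sums do not measure how many cells of a type were present. The part of other cells in the results was not tested. In these bulk cultures, a lower EPR can come from fewer cells with the fusion or from fewer edits in each, and the 2 cannot be told apart.

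Differences between the constructs were tested over 8046 genes, namely all that were edited in every library, the 53 included. limma was run on log2(EPR + 0.01) with libraries brought to a common median gene, and a gene was called at a Benjamini-Hochberg adjusted p under 0.05 over all 8046. Fold changes are RPL10A-STAMP over RPL22-STAMP and understate changes of genes with low EPR. Among the early secretory genes, 7 of 53 were called, 13.2%, beside 14.3% of all genes tested. Of these, 6 were higher with RPL10A-STAMP (11.3%, beside 8.51% of all genes) and 1 was higher with RPL22-STAMP (1.89%, beside 5.77%). The libraries of the constructs did not overlap in EPR relative to the median gene for 15 of 53 genes, 28.3%, beside 37.1% of all genes. The median log2 fold change was 0.01, with a range of -0.94 to 2.15, beside -0.01 over all genes, and 28 of 53 genes lay above 0. As a set, the early secretory genes thus had a share of calls near the background.

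**Figure D1:**
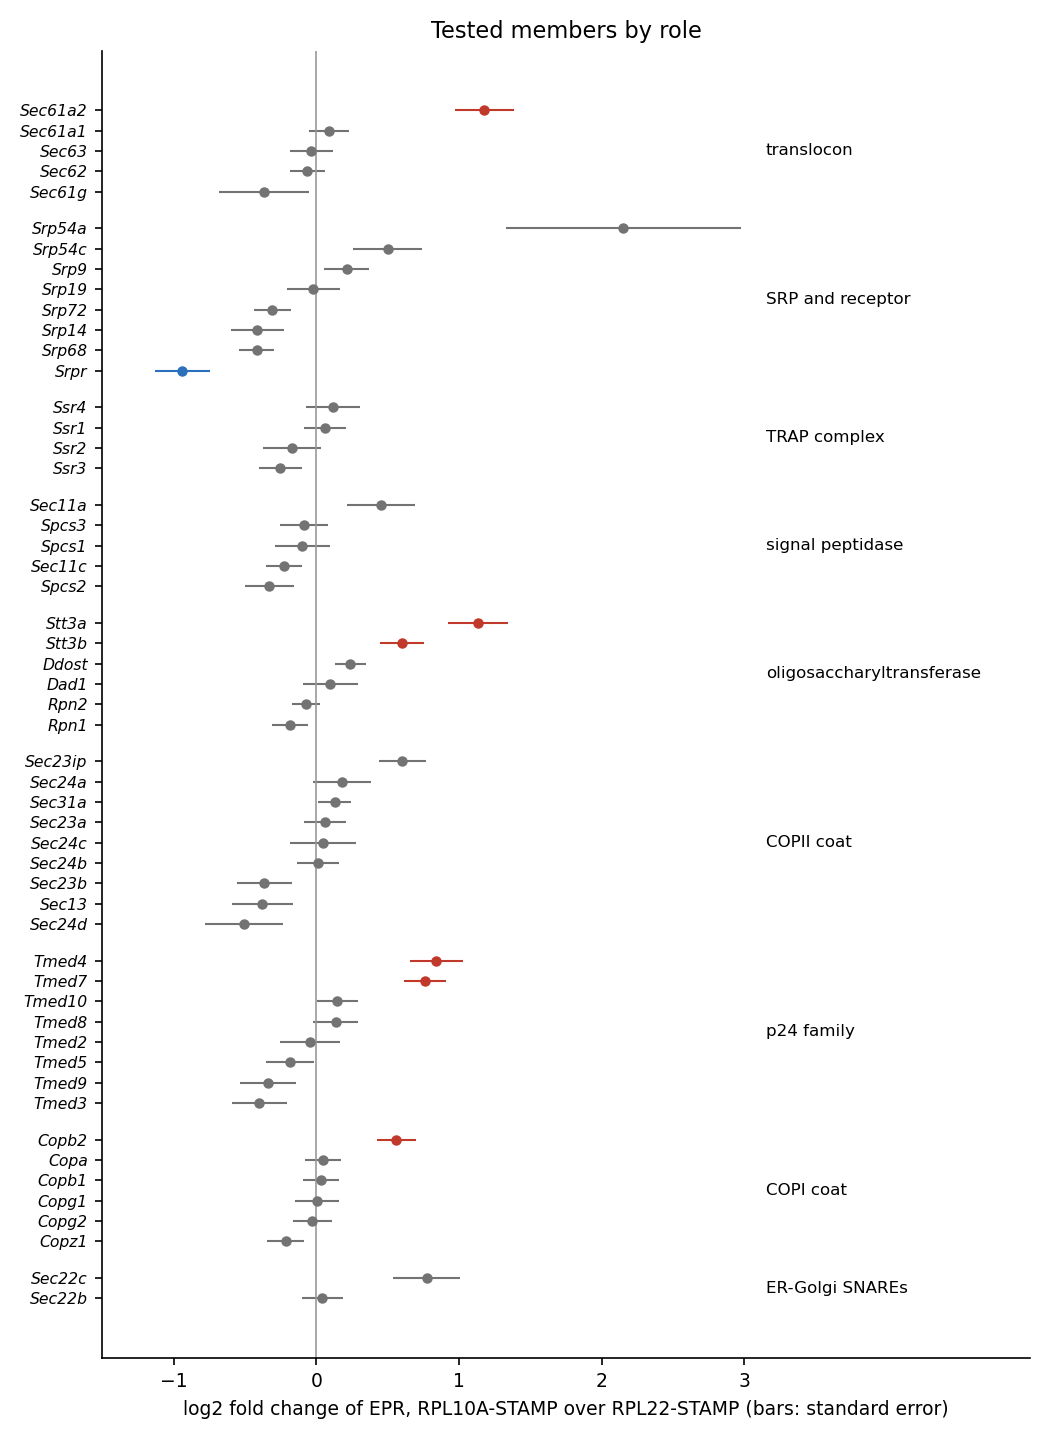
Log2 fold change of EPR, RPL10A-STAMP over RPL22-STAMP, on the log2(EPR + 0.01) scale for the 53 genes edited in all 6 libraries, ordered by role, with points for the estimate and bars for its standard error. The 6 red genes were called higher with RPL10A-STAMP and the 1 blue gene, Srpr, higher with RPL22-STAMP, and most of the others lie near 0.

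Among the genes that bring ribosomes to the ER, Srpr, the SRP receptor subunit that binds SRP, was the only early secretory gene called higher with RPL22-STAMP. Srpr (ENSMUSG00000032042, chromosome 9 from 35200175 to 35247973, GRCm38, plus strand) had an EPR of 0.00691, 0.00818 and 0.00356 in RPL10A-STAMP replicates 1, 2 and 3, and of 0.0146, 0.0148 and 0.0226 in the RPL22-STAMP replicates. All RPL22-STAMP libraries lay above all RPL10A-STAMP libraries. The means were 0.00622 ± 0.00239 and 0.0173 ± 0.00457 (SD, n = 3 each), and the log2 fold change was -0.94 (standard error 0.19, limma adjusted p = 0.0223). Without RPL10A-STAMP replicate 2 or 3, or RPL22-STAMP replicate 1 or 3, the limma adjusted p was 0.0591, 0.0779, 0.0534 and 0.0629. Exact runs of at least 50 bases found elsewhere in the genome made up 63.5% of its transcript, and their part in the value was not tested.

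The SRP itself has 10 genes here with its receptor, of which 8 were tested and 1 was called, beside 14.3% of all genes. An unadjusted limma p under 0.05 was found in 4 of the 8, beside 30.9% of all genes and 12 of the 53 (22.6%). Fold changes were below 0 in 5 of 8, with a median of -0.16. Srp68, which binds the RNA of the particle together with Srp72, had an EPR of 0.00435, 0.00257 and 0.00452 with RPL10A-STAMP against 0.00676, 0.00811 and 0.00580 with RPL22-STAMP. These libraries did not overlap, but the log2 fold change of -0.42 missed the threshold (limma adjusted p = 0.0677). Srp68 was called in 0 of 18 alternative settings. With the trend with transcript GC content removed its log2 fold change was -0.19 (limma adjusted p = 0.407). Srp72 went from 0.01003, 0.0151 and 0.0172 to 0.0112, 0.0186 and 0.0166, and overlapped as deposited. Relative to the median gene its RPL22-STAMP libraries were all higher (log2 fold change -0.31, limma adjusted p = 0.158). The lowest tested gene of this group was Srp19, another particle protein, at a mean of 0.00464.

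The Srp54 genes are 3 neighbours on chromosome 12 that encode the subunit which reads the signal sequence. The 60-base stretch of coding sequence that holds the most differing bases (coding bases 914 to 973, exon 11, plus strand, GRCm38) is printed to show how little sets the copies apart, with the differing bases in capitals. It lies at chr12:55102495-55102554 in Srp54a, at chr12:55177555-55177614 in Srp54b and at chr12:55252799-55252858 in Srp54c.
Srp54a: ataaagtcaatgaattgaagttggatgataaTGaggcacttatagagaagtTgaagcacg
Srp54b: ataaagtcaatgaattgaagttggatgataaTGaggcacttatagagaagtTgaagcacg
Srp54c: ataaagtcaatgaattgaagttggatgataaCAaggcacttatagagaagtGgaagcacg
Over the 1512 coding bases, Srp54a and Srp54b were identical and Srp54a and Srp54c differed at 6 bases (99.6% identity).

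The 3 copies had very different EPR. Srp54a had 9.40, 9.25 and 9.75 in the RPL10A-STAMP libraries and 1.55, 0.524 and 5.20 in the RPL22-STAMP libraries. Srp54b was at 0 in all 6. Srp54c had 0.0256, 0.0303 and 0.0429 with RPL10A-STAMP against 0.0209, 0.0128 and 0.0113 with RPL22-STAMP. An EPR above 1 means more edits than reads, and Srp54a exceeded 1 in 5 of 6 libraries, the highest value of the 53 genes in each library. Its log2 fold change of 2.15 had a standard error of 0.82, and it was not called (limma adjusted p = 0.126), nor was Srp54c (0.50, limma adjusted p = 0.208). Without RPL22-STAMP replicate 3, Srp54a was called (limma adjusted p = 0.0499), and without RPL22-STAMP replicate 1, Srp54c was called (limma adjusted p = 0.0362). Of their transcripts, 98.0%, 100% and 97.6% were copied exactly elsewhere for Srp54a, Srp54b and Srp54c. How edits and reads in such sequence were assigned to a copy was not tested, so that levels of single copies are uncertain.

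In the translocon, Sec61a2 was called and its paralog Sec61a1, which encodes the other form of the main channel subunit, was not. The coding stretch with the most differing bases between them is printed because their transcripts, unlike those of Srp54, can be told apart by sequence. Capitals mark the 22 differing bases of coding bases 1040 to 1099, in exon 10 and on the minus strand of GRCm38, at chr6:88506809-88506868 for Sec61a1 and chr2:5874295-5874354 for Sec61a2.
Sec61a1: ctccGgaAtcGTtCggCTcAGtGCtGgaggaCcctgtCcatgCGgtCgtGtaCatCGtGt
Sec61a2: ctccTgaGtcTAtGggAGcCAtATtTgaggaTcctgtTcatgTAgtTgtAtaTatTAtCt
Over the whole coding sequence they were 78.9% identical, and neither transcript had an exact run of 50 bases elsewhere.

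Sec61a2 (ENSMUSG00000025816, chromosome 2 from 5870987 to 5895432, minus strand) had an EPR of 0.0438, 0.0992 and 0.0982 in the RPL10A-STAMP libraries and of 0.0179, 0.0237 and 0.0208 in the RPL22-STAMP libraries. The RPL10A-STAMP libraries were all higher, replicate 1 less so than the other two. The means were 0.0804 ± 0.0317 and 0.0208 ± 0.00290 (SD, n = 3 each), with a log2 fold change of 1.177 (standard error 0.21, limma adjusted p = 0.0143). Without RPL10A-STAMP replicate 2 or 3 the limma adjusted p was 0.0506 and 0.0609. Sec61a1 had 0.00818, 0.00937 and 0.00902 against 0.00374, 0.01005 and 0.00492. These overlapped, and the log2 fold change of 0.09 had a 95% interval of -0.25 to 0.43 (limma adjusted p = 0.713). After the trend with transcript GC content had been removed, the log2 fold change of Sec61a2 was 1.05 (limma adjusted p = 0.0265). That of Sec61a1 was then 0.31 (limma adjusted p = 0.228).

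In every library Sec61a2 had a higher EPR than Sec61a1. The ratio averaged 8.52 with RPL10A-STAMP against 3.63 with RPL22-STAMP (geometric means; log2 3.09 ± 0.58 and 1.86 ± 0.55, SD, n = 3 each). The log2 ratios of the constructs did not overlap, and their difference was 1.23 (two-sided exact permutation test, p = 0.10, the smallest that 3 against 3 libraries allow, and 0.30 after adjustment over 9 paralog pairs).

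The other translocon genes tested were Sec61g, Sec62 and Sec63, and none was called, with log2 fold changes of -0.37, -0.06 and -0.04. Sec61g, a small subunit of the channel, had the highest mean EPR of the translocon, 0.0519, and 55.7% of its transcript was copied exactly elsewhere. Sec61b, the remaining small subunit, was at 0 in RPL22-STAMP replicate 1 and between 0.00347 and 0.0142 in the other libraries, and 70.5% of its transcript was copied. The 4 TRAP genes, whose products help some signal sequences through the channel, gave no call, none with an unadjusted p under 0.05 by limma, and log2 fold changes of -0.25 to 0.12. Over all genes 14.3% were called and 30.9% had such an unadjusted p. Levels of the TRAP genes ran from a mean of 0.00677 for Ssr4 to 0.0220 for Ssr3.

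The 5 signal peptidase genes also gave no call and none with an unadjusted p under 0.05 by limma. Over all genes these shares were 14.3% and 30.9%. Sec11a and Sec11c encode alternative catalytic subunits. Sec11a had 0.00990, 0.00932 and 0.0270 with RPL10A-STAMP against 0.00290, 0.00593 and 0.00864 with RPL22-STAMP (log2 fold change 0.45, limma adjusted p = 0.244), and Sec11c had 0.00389, 0.00443 and 0.00339 against 0.00536, 0.00394 and 0.00547 (-0.23, limma adjusted p = 0.265). As deposited, Sec11a did not overlap between the constructs and Sec11c did. Relative to the median gene Sec11a overlapped as well, with 0.611 in RPL10A-STAMP replicate 2 and 0.769 in RPL22-STAMP replicate 3. The log2 ratio of Sec11a to Sec11c was 1.80 ± 1.04 with RPL10A-STAMP against 0.12 ± 0.87 with RPL22-STAMP (SD, n = 3 each), without overlap (two-sided exact permutation test, p = 0.10, adjusted 0.30). The large RPL10A-STAMP spread came with replicate 3, the highest Sec11a value. The highest of the 5 genes was Spcs2, an accessory subunit, at a mean of 0.0132, and the lowest Sec11c at 0.00441.

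Of the 6 OST genes, 2 were called, and both encode its catalytic subunits. Over all genes 14.3% were called, and with the trend with transcript GC content removed neither catalytic subunit was called. Stt3a belongs to the complex that works beside the translocon, and Stt3b to the complex that also reaches sites on finished chains. Their aligned coding stretch with the most mismatches lies in exon 13 of Stt3a (chr9:36743515-36743574) and exon 11 of Stt3b (chr9:115252539-115252598), both on the minus strand of GRCm38. Capitals mark 39 differing bases. The stretch covers coding bases 1396 to 1455 of Stt3a and 1619 to 1678 of Stt3b, which are aligned in different reading frames. The run TGGGT occurs in both but at different places, so that the capitals overstate how far the paralogs differ.
Stt3a: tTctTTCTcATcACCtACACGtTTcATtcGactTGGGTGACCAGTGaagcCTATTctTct
Stt3b: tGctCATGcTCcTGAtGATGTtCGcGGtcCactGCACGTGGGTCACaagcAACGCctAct
Over the coding sequences, the identity was 58.4%, gaps included, and neither transcript had exact copies of 50 bases.

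Stt3a (ENSMUSG00000032116, chromosome 9 from 36729344 to 36767679, minus strand) had an EPR of 0.0236, 0.0456 and 0.0645 in RPL10A-STAMP replicates 1, 2 and 3 and of 0.00725, 0.0126 and 0.00992 in the RPL22-STAMP replicates. No library of one construct reached those of the other. The means were 0.0446 ± 0.0204 and 0.00991 ± 0.00265 (SD, n = 3 each), with a log2 fold change of 1.13 (standard error 0.21, limma adjusted p = 0.0161). The limma adjusted p was 0.0578 and 0.0509 without RPL10A-STAMP replicates 2 and 3, 0.0507 without RPL22-STAMP replicate 3 and 0.0587 after the trend with transcript GC content had been removed.

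Stt3b (ENSMUSG00000032437, chromosome 9 from 115242581 to 115310421, minus strand) had 0.0242, 0.0281 and 0.0306 with RPL10A-STAMP against 0.00725, 0.0173 and 0.01003 with RPL22-STAMP. These too did not overlap, and replicate 2 was the highest RPL22-STAMP library. The means were 0.0276 ± 0.00321 and 0.0115 ± 0.00518 (SD, n = 3 each), and the log2 fold change was 0.60 (standard error 0.15, limma adjusted p = 0.0423). Leaving out any library but RPL22-STAMP replicate 2 raised the limma adjusted p to between 0.0992 and 0.119, and with the GC trend removed it was 0.0578. The log2 ratio of Stt3a to Stt3b was -0.04, 0.70 and 1.08 in the RPL10A-STAMP replicates and 0.0002, -0.46 and -0.02 in the RPL22-STAMP replicates, which overlapped through RPL10A-STAMP replicate 1 (two-sided exact permutation test, p = 0.30, where 3 against 3 libraries allow no p below 0.10).

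The other OST subunits did not pass the test. Ddost, which stabilises the complex, had 0.00813, 0.00990 and 0.0104 with RPL10A-STAMP against 0.00453, 0.00491 and 0.00485 with RPL22-STAMP. Its libraries did not overlap, but the log2 fold change came to 0.24 (limma adjusted p = 0.189), and it was called with the GC trend removed. Dad1, Rpn1 and Rpn2 had log2 fold changes of 0.10, -0.18 and -0.07. Rpn2, an accessory subunit, had the lowest mean EPR of all 53 genes, 0.00340, with a range of 0.00277 to 0.00410. The median OST gene was at 0.558 times the median gene of a library.

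**Figure D2:**
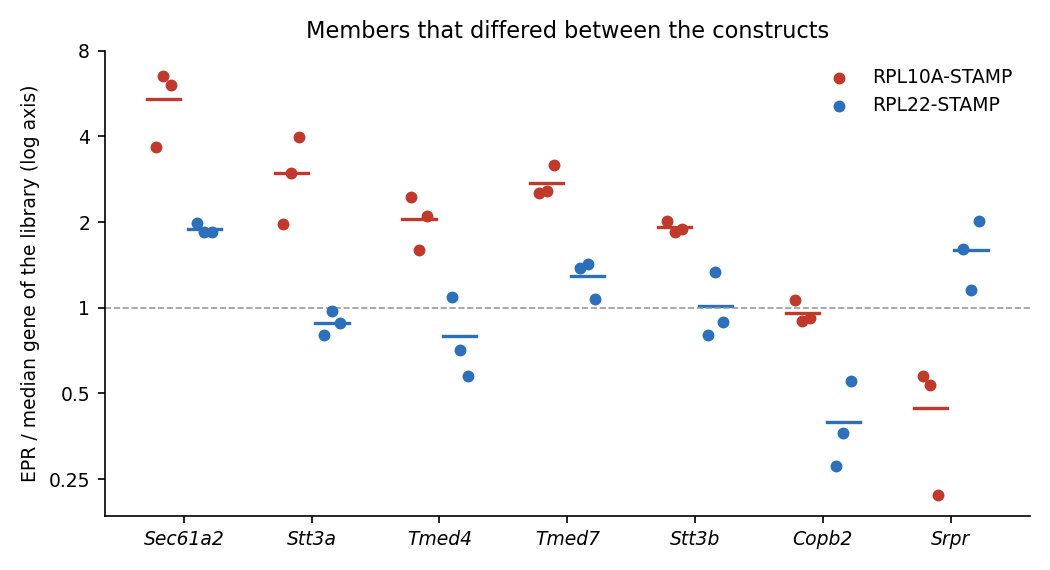
EPR relative to the median gene of the library, on a log axis, in each of the 6 libraries for the 7 called genes, with bars at the mean of the 3 libraries of a construct. In each of the 7 genes the libraries of RPL10A-STAMP and RPL22-STAMP do not overlap, and Srpr is the only one with RPL22-STAMP above.

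Over 18 alternative settings, Sec61a2 was called in 14, Tmed7 in 12, Stt3a in 11, Tmed4 and Srpr in 10 each, Copb2 in 7 and Stt3b in 6. None of the 7 kept its call in all 18. Under the filters that admit genes at 0 in some libraries, Tmed4, Copb2 and Stt3b lost their calls in both cases. Stt3a and Srpr lost theirs only with no filter at all.

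Of the COPII coat genes, 9 of 10 were tested and none was called by limma, beside 14.3% of all genes. An unadjusted limma p under 0.05 was found in 1 gene, beside 30.9% of all genes. That gene was Sec23ip, with 0.0101, 0.0111 and 0.0224 in the RPL10A-STAMP libraries and 0.00385, 0.00521 and 0.00301 in the RPL22-STAMP libraries. The libraries did not overlap, and the log2 fold change of 0.60 was just outside the threshold (limma adjusted p = 0.0551). The cargo-binding Sec24 genes ranged from a mean of 0.00755 in Sec24b to 0.0235 in Sec24a, the highest of the coat. Sec24a was above Sec24b in 6 of 6 libraries, with a log2 ratio of 1.68 ± 0.68 and 1.44 ± 0.59 for the constructs (SD, n = 3 each; two-sided exact permutation test of the difference, p = 0.60). Sec24c and Sec24d had log2 fold changes of 0.05 and -0.51. Sec23a lay above Sec23b in 5 of 6 libraries (difference between the constructs 1.01 on the log2 scale, two-sided exact permutation test, p = 0.20). Sec31a, an outer coat protein, had the lowest mean of the coat, 0.00639, and its paralog Sec31b was at 0 throughout.

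In the p24 family, 8 of 11 genes were tested and 2 were called, both higher with RPL10A-STAMP. Of all genes tested, 14.3% were called, and 8.51% were called higher with RPL10A-STAMP. Tmed7 (ENSMUSG00000033184) had an EPR of 0.0303, 0.0391 and 0.0512 in the RPL10A-STAMP libraries and of 0.0125, 0.0184 and 0.0120 in the RPL22-STAMP libraries, without overlap. The means were 0.0402 ± 0.0105 and 0.0143 ± 0.00356 (SD, n = 3 each), with a log2 fold change of 0.76 (standard error 0.15, limma adjusted p = 0.0180). Without RPL10A-STAMP replicate 2 or 3 or RPL22-STAMP replicate 3 the limma adjusted p was 0.0546, 0.0714 and 0.0533. Another gene shared 9.48% of its exon bases.

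Tmed4 (ENSMUSG00000004394, chromosome 11 from 6270369 to 6274870, minus strand) had 0.0294, 0.0244 and 0.0339 with RPL10A-STAMP against 0.00992, 0.00915 and 0.00649 with RPL22-STAMP. The lowest RPL10A-STAMP library was above the highest RPL22-STAMP library. The means were 0.0292 ± 0.00479 and 0.00852 ± 0.00180 (SD, n = 3 each), and the log2 fold change was 0.84 (standard error 0.18, limma adjusted p = 0.0264). The limma adjusted p was 0.0776 and 0.0892 without RPL10A-STAMP replicates 1 and 3, and 0.0711 and 0.0774 without RPL22-STAMP replicates 2 and 3. Its close relative Tmed9 (73.2% identical coding sequence) had a log2 fold change of -0.34 (limma adjusted p = 0.291), and Tmed3, related to Tmed7 (68.8%), had -0.40 (limma adjusted p = 0.210). Relative to the median gene, all RPL22-STAMP libraries of Tmed3 lay above those of RPL10A-STAMP.

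Tmed2, a widely expressed p24 protein, had the highest mean EPR of the family, 0.123, with 0.104, 0.129 and 0.174 against 0.0644, 0.140 and 0.127. These overlapped (log2 fold change -0.04, limma adjusted p = 0.911), and 92.5% of its transcript was copied exactly elsewhere. Tmed10, its partner in the p24 complex, had 84.1% copied and a mean of 0.0161. Tmed9 was the lowest, at 0.00683. Tmed1 was edited in 2 libraries, at 0.0185 and 0.0202, one of each construct, and Tmed6 and Tmed11 in none. The median p24 gene was at 1.46 times the median gene.

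Copb2, a COPI coat subunit that binds retrieval signals, was the only called gene of the 6 tested in its coat. Over all genes 14.3% were called. Copb2 (ENSMUSG00000032458, chromosome 9 from 98563721 to 98588382, plus strand) had 0.0127, 0.0138 and 0.0149 in the RPL10A-STAMP libraries and 0.00252, 0.00470 and 0.00621 in the RPL22-STAMP libraries. They did not overlap, and the RPL10A-STAMP libraries lay close together. The means were 0.0138 ± 0.00109 and 0.00448 ± 0.00185 (SD, n = 3 each), with a log2 fold change of 0.56 (standard error 0.13, limma adjusted p = 0.0355). Leaving out any library but RPL22-STAMP replicate 3 gave a limma adjusted p of 0.0864 to 0.0970, and removing the GC trend gave 0.0982. With genes edited in at least 3 libraries it was 0.0711, and with no filter 0.1002.

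The other tested COPI genes had log2 fold changes from -0.22 in Copz1, which had the highest mean of the coat (0.0130), to 0.05 in Copa, and Copb1 had the lowest mean (0.00660). Relative to the median gene, Copz1 was higher in all RPL22-STAMP libraries (limma adjusted p = 0.292). Copg1 and Copg2, alternative gamma subunits, showed log2 ratios of 0.05 ± 0.01 and -0.01 ± 0.42 in the constructs (SD, n = 3 each; two-sided exact permutation test, p = 1.0). Cope was at 0 in RPL10A-STAMP replicate 3, and Copz2 was edited only in RPL22-STAMP replicate 2, at 0.0217.

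The Sec22 genes showed no call among 2 tested, beside 14.3% of all genes, with 1 at an unadjusted p under 0.05 by limma. Over all genes 30.9% had such an unadjusted p. Sec22c had 0.0232, 0.0333 and 0.0136 with RPL10A-STAMP against 0.00601, 0.00776 and 0.00573 with RPL22-STAMP, without overlap (log2 fold change 0.77, limma adjusted p = 0.0712). Without RPL10A-STAMP replicate 3, its lowest in that construct, the limma adjusted p was 0.0278. Sec22b, the SNARE of the ER to Golgi step, had 0.0231, 0.0201 and 0.0282 against 0.0147, 0.0188 and 0.0187 (log2 fold change 0.04). The log2 ratio of Sec22c to Sec22b was -0.11 ± 0.90 with RPL10A-STAMP against -1.43 ± 0.25 with RPL22-STAMP (SD, n = 3 each), without overlap (two-sided exact permutation test, p = 0.10, adjusted 0.30). Sec22a was not tested, because it was at 0 in RPL22-STAMP replicate 3. It had 0.0131, 0.0246 and 0.0181 with RPL10A-STAMP and 0.00351 and 0.00137 in the other RPL22-STAMP libraries. Srprb, the membrane subunit of the SRP receptor, was likewise untested, with 0 in 1 library of each construct and values up to 0.0315.

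**Figure D3:**
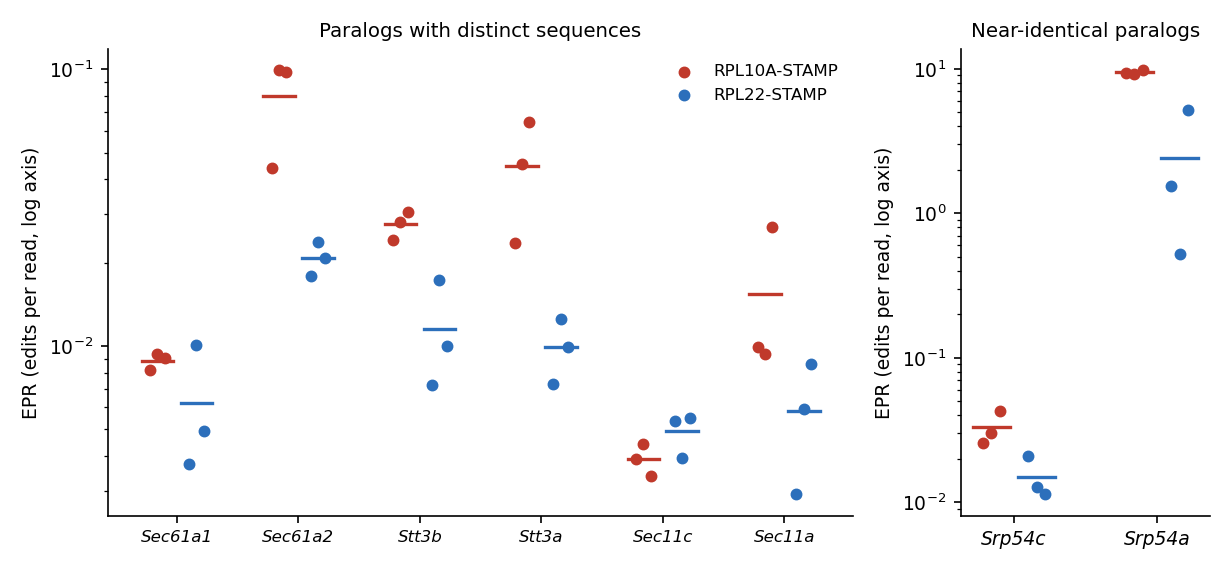
EPR on a log axis in each of the 6 libraries for the paralogs Sec61a1 and Sec61a2, Stt3b and Stt3a, Sec11c and Sec11a, and Srp54c and Srp54a. Sec61a2 lies above Sec61a1 in all 6 libraries, by more with RPL10A-STAMP, and Srp54a lies above Srp54c by a log2 ratio of 5.36 to 8.84.

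The level of the genes as a group was a little below the median gene. The median of the 53 was 0.883, 0.896 and 0.828 times the median gene of RPL10A-STAMP replicates 1, 2 and 3 and 0.953, 0.952 and 0.883 times that of the RPL22-STAMP replicates, with a mean of 0.899 ± 0.0476 (SD over 6 libraries). Between 30 and 32 of the 53 genes lay below the median gene in each library. The deposited EPR of the median gene was 0.0120, 0.0153 and 0.0161 in the RPL10A-STAMP replicates, against 0.00907, 0.0129 and 0.0112 in the RPL22-STAMP replicates. EPR is a ratio per read and is not divided by transcript length.

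Copied sequence moved with the level. Of the 53 genes, 6 had more than 50% of their transcript copied exactly elsewhere, and their median EPR was 2.97 times the median gene, beside 0.794 for the other genes. Across the 53 genes, Spearman's rho between the copied share and the mean EPR was 0.382, a description over genes that share the same libraries. Without the copied genes, an alternative chosen after seeing the data, the group's level was 0.805 times the median gene, and 6 genes were called among 47. The part of copied sequence in the levels was not tested.

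**Figure D4:**
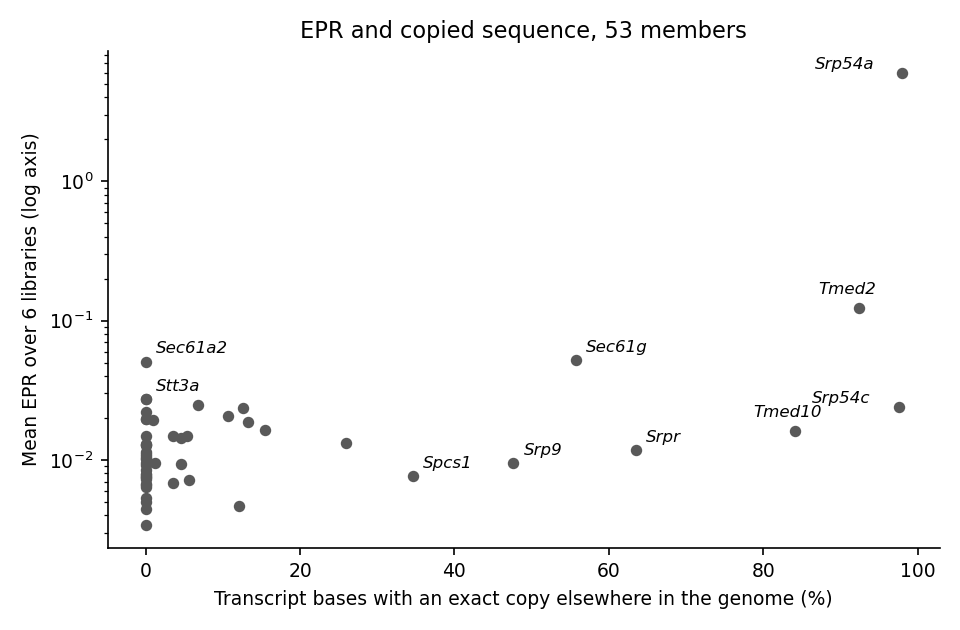
Percent of the transcript found in exact runs of at least 50 bases elsewhere in the genome against mean EPR over 6 libraries (log axis) for 53 genes. Srp54a and Tmed2, the genes with the highest mean EPR, have 98.0% and 92.5% copied, while 30 genes have 0%.

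Transcript features differed little from those of all genes tested. The 53 genes had a median transcript length of 2993 bases and coding length of 1194 bases, beside 3455 and 1461, a GC content of 48.7% beside 48.9% and a cytosine content of 22.8% beside 23.9%. Spearman's rho between GC content and the fold change was -0.201 over the 53 genes and -0.467 over 8039 genes, and between transcript length and the fold change 0.339 and 0.182. These describe genes that share libraries and composition.

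Other genes of the route were taken from lists of 110 genes for ER insertion, N-glycan synthesis, glycoprotein folding, COPII and COPI assembly and ER to Golgi SNAREs and tethers. Of 84 tested, 6 were called, 7.14%, beside 14.3% of all genes. With RPL10A-STAMP, 5 were higher. Uggt2, which re-glucosylates misfolded glycoproteins, had a log2 fold change of 1.604 (limma adjusted p = 0.00444). Alg13, of the N-glycan precursor pathway, had 1.31 (limma adjusted p = 0.0404), and Dpm1, which makes dolichol phosphate mannose for the same pathway, had 0.97 (limma adjusted p = 0.0231). Emc7, a subunit of an ER membrane insertase, had 0.68 (limma adjusted p = 0.0151), and Arf4, a small GTPase, 0.80 (limma adjusted p = 0.0146). Arf3, another Arf GTPase, was the only one higher with RPL22-STAMP, at -1.19 (limma adjusted p = 0.00452). By list, 1 of 13 insertion genes, 2 of 21 for N-glycan synthesis, 1 of 12 for folding, 0 of 12 for COPII assembly, 2 of 14 for COPI and Arf and 0 of 12 SNAREs and tethers were called, and 1 and 2 genes of the lists without a call had an unadjusted p under 0.05 by limma.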

How the data were processed

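The deposited ratio, EPR, was made by the authors for each of 31053 Ensembl genes in each of 6 libraries. Trimming was by cutadapt, alignment to mm10 by STAR, edit calling by SAILOR and read counting by featureCounts, and EPR is edits over reads. The gene annotation was not given in the sources used here. Edit and read counts cannot be recovered from the ratio, so no counting intervals were given.

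Genes were named through GENCODE mouse release 21 (31011 of 31053 matched). The members and lists were chosen with earlier results of these data known. The rule's "EPR in all 6 files" was read as listed in all 6. Scaling used the median EPR of each library's 8046 genes edited throughout, and limma 3.58.1 (R 4.3.3) fitted log2(EPR + 0.01) with a variance trend, tested on simulated data. The threshold was a Benjamini-Hochberg adjusted p of 0.05 over 8046 genes. Named were called genes, paralogs, the highest and lowest of each role, genes at 0 and genes without overlap. Paralog ratios were compared with exact permutation tests. Copied sequence was found with BLAST 2.17.0 on GRCm38. Alternatives covered filters, pseudocounts, scaling, GC content, length, the replicate number as a block and each library left out.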

Additional observations from a re-analysis of the deposited data

How the results depend on the processing

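The report calls 7 members. With no filter on edited genes 3 of 59 members were called, beside 569 of 12811 genes. Of the 3, Sec61a2 and Tmed7 were among the 7 and Sec22a was not tested in the report. With the replicate block 3 were called, Sec61a2, Stt3a and Tmed4, and Tmed7, Srpr, Copb2 and Stt3b were lost (limma adjusted p 0.0620, 0.0666, 0.0846 and 0.0921). With the GC content trend removed and the replicate block 0 were called (limma; 19 of 53 members, 35.8%, at an unadjusted p under 0.05, beside 25.7% of 8039 genes), and by the gene-by-gene test of the study's methods 0 (13 members, 24.5%, unadjusted, beside 1996 of 8046 genes, 24.8%, none of them called). Both counts of 0 are at the adjusted threshold used here, whereas the study's statistics section states that EPR analyses were not adjusted. With 1 library left out 1 to 5 members were called, of which 0 to 5 were among the 7. Calls over all 8046 genes fell too, to between 369 and 873. Without RPL10A-STAMP replicate 2 the 1 call was Tmed4, and without RPL10A-STAMP replicate 3 it was Sec22c, with none of the 7. Srp54c was gained without RPL22-STAMP replicate 1 and Srp54a without RPL22-STAMP replicate 3. Fewer libraries lower the power of the test. The cause of the other losses was not tested. Under the other settings 5 to 9 members were called, and 663 to 1176 of all genes. With genes edited in at least 3 libraries 4 of the 5 were among the 7, the other being Sec22a, with the GC trend removed 4 of 5, the other being Ddost, and with quantile normalization 6 of 7, the other being Sec23ip. The 9 came without scaling and held all of the 7 with Sec22c and Sec23ip. There the median log2 fold change of all genes moved from -0.01 to 0.18, that of the members to 0.21, and 88.1% of all calls were higher with RPL10A-STAMP, against 59.6%. With the replicate block 603 genes were called, with the GC trend removed 663, and with both 227, against 1149. The labels do not say whether the replicate numbers pair the libraries. Correlations of the deviations of same-numbered libraries were 0.0437, 0.0464 and -0.00546, against -0.0486 to 0.00406 for libraries of different numbers. With 3 libraries a construct and unknown depth, these correlations cannot settle the pairing. None of the 7 called members changed sign under any alternative that was run.

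Among the other pathway genes, with 6 calls in the report, 3 were called with the GC content trend removed and the replicate block, 0 of them by the gene-by-gene test (17 unadjusted) and 2 to 6 with 1 library left out, the lowest without RPL10A-STAMP replicate 2 or 3. In those 2 settings 428 and 369 of all 8046 genes were called. The members' level of 0.899 times the median gene was 0.805 without members over 50% copied, an alternative chosen after seeing the data, and 0.888 to 0.913 with 1 library left out. Of 9 paralog ratios, 3 did not overlap between the constructs, and 3 to 5 with 1 library left out. The depth behind each EPR is unknown, which limits every gene with few reads, and 3 libraries a construct limit the precision.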
